A study of Mus musculus with 10 samples.

Results

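The ESCRT machinery and its partners in abscission, the last cut that separates daughter cells, were followed through hearts of 1 week old Ft1ko, Ft1sm22ko and WT mice. The set holds 32 genes chosen by name as subunits of ESCRT-0, ESCRT-I, ESCRT-II and ESCRT-III, the Vps4 ATPases with their cofactors, and Alix and Cep55. All 32 were among the 16440 genes present in the 3 deposited tables, and 29 of them, with 9955 genes in all, had a mean over the 10 hearts of at least 100 normalized counts. RNA was sequenced from heart tissue of 3 Ft1ko, 4 Ft1sm22ko and 3 WT male animals. The sources used here do not say whether whole hearts were taken. Ft1ko mice came from animals with a floxed Ft1 gene (Aktip in the tables) crossed to a CMV-cre line and lack Ft1 in the whole body. Ft1sm22ko mice came from the same floxed animals crossed to a sm22-cre line, in which the promoter of Tagln, a smooth muscle gene that embryonic heart muscle also uses for a time, drives Cre, and the heart keeps cells with an intact gene. WT is the label of the control animals, and their strain is not given in the sources used here.

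Each deposited table covers 1 pair of genotypes and gives 1 mean per gene over the hearts of both. The mean of each genotype was solved from the 3 pooled means of a gene after the tables, which the authors normalized separately, were set on 1 scale. The labels of the 3 WT hearts name only the table with Ft1ko, and it was assumed that the same 3 stand in the table with Ft1sm22ko, on which every solved mean depends. These solved means carry no SD and no p, because no values per heart were analysed here. A gene was called higher or lower where its ratio of group means was at least 1.5-fold up or down, and each count of members is read against the share of all 9955 genes past the same fold. Placing the tables on 1 scale in 4 different ways moved the log2 ratio of a member by 0.31 to 1.37 between Ft1ko and WT, by 0.15 to 1.28 between Ft1sm22ko and WT, and by 0.09 to 0.24 between Ft1sm22ko and Ft1ko. A fold near 1.5 therefore depends on the scale, and the calls that stood under all 4 scales are named as such. The scale from genes almost only in 1 genotype rests on 121 Ft1ko genes but only 3 WT and 2 Ft1sm22ko genes.

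ESCRT complexes act in sequence on membranes that bud or close away from the cytosol. ESCRT-0 gathers ubiquitin-tagged cargo on endosomes, ESCRT-I and ESCRT-II shape the bud, ESCRT-III polymerizes into filaments that narrow the neck, and the Vps4 ATPases take the filaments apart. At the midbody, the bridge left between daughter cells, Cep55 recruits Alix and the ESCRT-I subunit Tsg101, which bring ESCRT-III for abscission, and ESCRT-III also seals holes in the nuclear envelope. Ft1 resembles Tsg101 in sequence and has been linked to ESCRT.

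Aktip averaged 181 normalized counts in Ft1ko hearts and 286 in Ft1sm22ko hearts, against 657 in WT hearts. Its ratio to WT was 0.276 in Ft1ko and 0.435 in Ft1sm22ko, and the values cover the whole gene, deleted exons and others alike. Marker genes of several cell types differed between the genotypes as well. The 8 cardiomyocyte markers summed to 265100 in Ft1ko, 547600 in Ft1sm22ko and 1393000 in WT, and 8 of 8 were at least 1.5-fold lower in Ft1ko and 6 of 8 in Ft1sm22ko. The 5 fibroblast markers summed to 86610 in Ft1ko, 93390 in Ft1sm22ko and 24240 in WT, with 3 of 5 higher in Ft1ko and 5 of 5 in Ft1sm22ko. The 8 lung epithelium markers reached 49780 in Ft1ko and 3107 in Ft1sm22ko, against 94.9 in WT, where 6 of the 8 were solved at or under 0. The 8 thymocyte markers reached 5556 in Ft1ko, 137 in Ft1sm22ko and 68.0 in WT. All 5 atrial markers were higher in both mutants, with sums of 53660 in Ft1ko and 52990 in Ft1sm22ko, and 4 of them were solved at or under 0 in WT. The 4 smooth muscle markers summed to 11710 in Ft1ko, 9574 in Ft1sm22ko and 9874 in WT, with 3 higher in Ft1ko and 2 in Ft1sm22ko. The 4 endothelium markers summed to 11400 in Ft1ko, 13890 in Ft1sm22ko and 10320 in WT, with 0 higher in Ft1ko and 1 in Ft1sm22ko. Rn45s, the ribosomal RNA precursor, averaged 176500 in Ft1ko, 251900 in Ft1sm22ko and 5470000 in WT. The part of these differences in the values of the ESCRT genes was not tested, and in bulk hearts fewer cells of a type cannot be told apart from less RNA per cell.

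Fewer ESCRT genes than genes in general passed 1.5-fold, and Cep55 stood far outside the rest. Cep55 had a WT mean of 30.1, so it passed the minimum of 100 through the mutants alone and had to differ from WT. In Ft1ko hearts 5 of 29 members were at least 1.5-fold higher than in WT (Cep55, Chmp1b, Chmp4b, Mvb12b and Vta1), where 25.2% of all genes were, and 3 were lower (Mvb12a, Snf8 and Vps25), where 27.7% of all genes were. Together 27.6% of the members passed the fold, against 52.9% of all genes. The balance of higher and lower members depended on the scale, with 3 higher and 7 lower under the median ratio over all genes, 3 higher and 4 lower under genes almost only in 1 genotype, and 12 higher and 1 lower under totals without the 100 highest genes. All genes moved with these scales too. In the same order 20.5% were higher and 33.0% lower, 23.1% higher and 29.3% lower, and 34.5% higher and 20.9% lower. The median log2 ratio of the members was 0.18, while all genes had quartiles of -0.66 and 0.59 and a median of -0.04. This lead of the members was gone with other minimums, since their median less that of all genes was -0.01 with a mean of at least 10 and -0.028 with a mean of at least 500. In Ft1sm22ko hearts 3 members were higher than in WT (Cep55, Vps37c and Vta1), beside 22.0% of all genes, and Snf8 alone was lower, beside 21.0% of all genes. Totals gave 9 members higher and 1 lower, beside 30.8% and 16.8% of all genes. On the scale used here the median log2 ratio of the members in Ft1sm22ko was 0.22, against -0.006 for all genes. Both comparisons rest on 1 WT mean and are therefore not independent. Between the mutants 0 of 29 members passed the fold in either direction, while 14.2% of all genes were higher and 11.1% lower in Ft1sm22ko than in Ft1ko. With no values per heart none of these differences has a test. Under all 4 scales Mvb12b and Vta1 were higher and Snf8 lower in Ft1ko, and Vta1 was higher and Snf8 lower in Ft1sm22ko. Cep55 was also higher in both mutants under all 4 scales, but its admission through the mutants makes that a description. Without Cep55, 7 of 28 members passed the fold in Ft1ko (4 higher and 3 lower). In Ft1sm22ko 3 of the 28 passed it (2 higher and 1 lower).

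The distance between the members and all genes depended on the size of the fold. At or past a smaller fold, a ratio of 5 to 4, stood 72.4% of members and 72.1% of all genes in Ft1ko, larger differences included, and in Ft1sm22ko they were 58.6% of members and 65.8% of all genes. At 2-fold 6.9% of members and 30.6% of all genes passed in Ft1ko, and 3.45% of members and 20.1% of all genes in Ft1sm22ko. Between Ft1sm22ko and Ft1ko 6.9% of members and 49.2% of all genes passed the smaller fold.

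**Figure D1:**
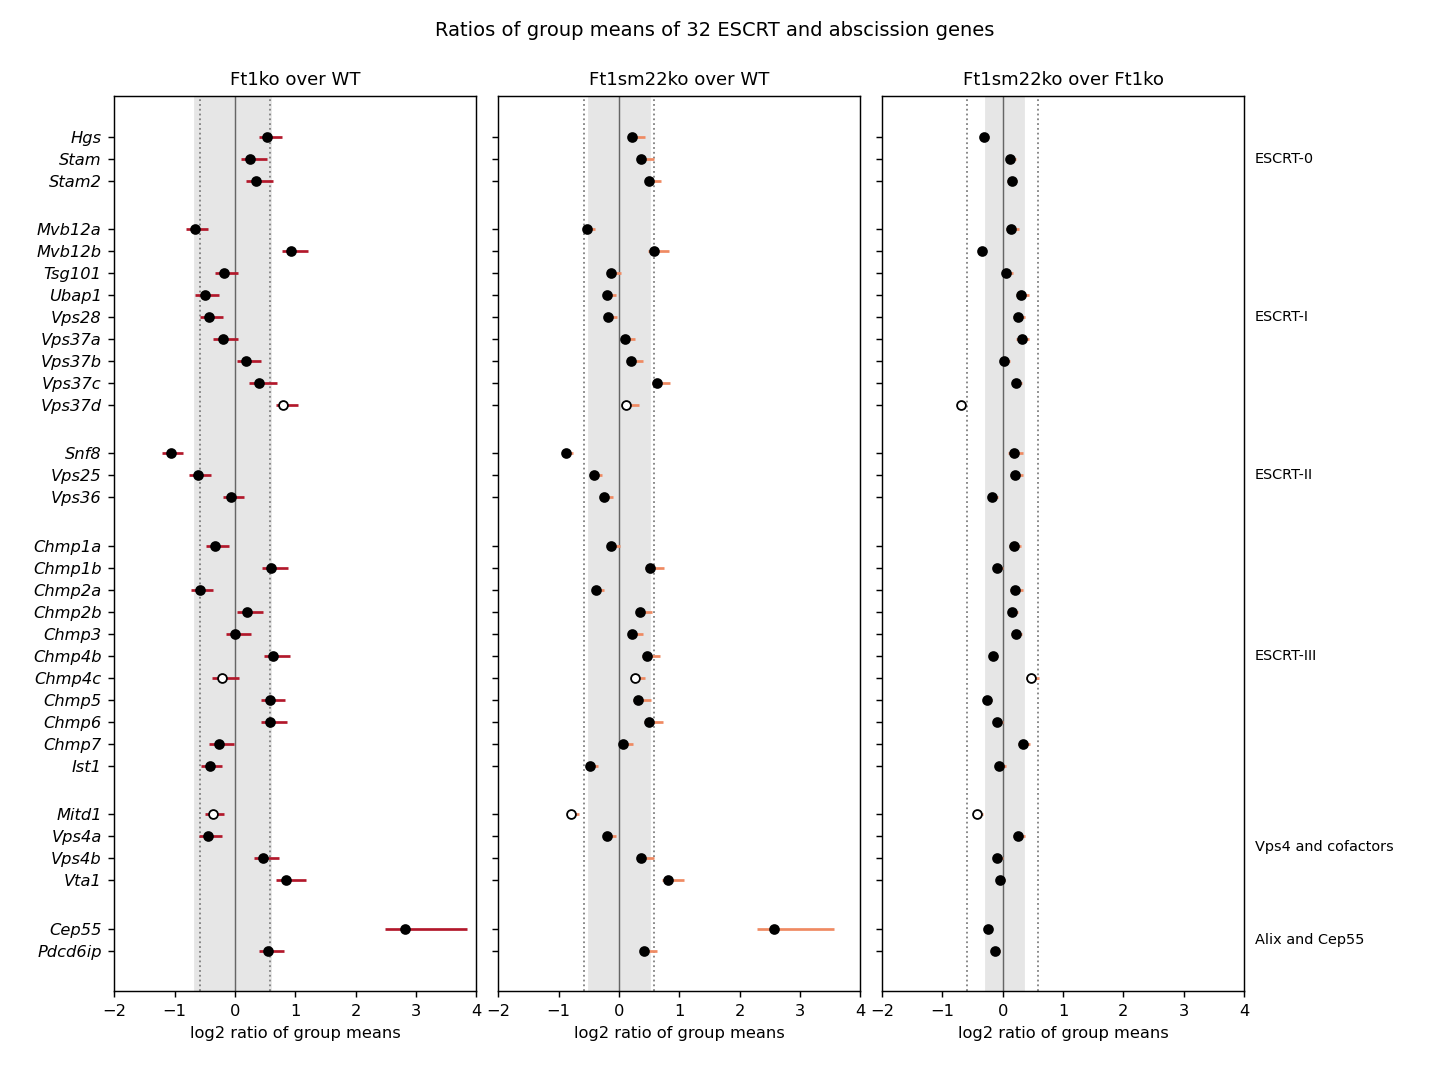
Log2 ratios of group means for the 32 genes, with Ft1ko set over WT in the left panel, Ft1sm22ko set over WT in the middle and Ft1sm22ko set over Ft1ko on the right. Points are the values used in the text, open where the mean over the 10 hearts was under 100 normalized counts, coloured lines span the 4 scales, grey bands run between the quartiles of all genes and dotted lines mark 1.5-fold. Cep55 lies far to the right in both comparisons with WT, at 2.82 for Ft1ko and 2.57 for Ft1sm22ko, and every filled point of the right panel lies between -0.35 and 0.34.

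Cep55, the scaffold that docks ESCRT at the midbody, had the largest difference of the 29 members in both comparisons with WT. It averaged 212 normalized counts in Ft1ko and 178 in Ft1sm22ko, against 30.1 in WT. The authors' pooled means behind these values were 412 over the Ft1ko and Ft1sm22ko hearts, 121 over the Ft1ko and WT hearts and 156 over the Ft1sm22ko and WT hearts, each on the scale of its own table. The ratio to WT was 7.05 in Ft1ko and 5.92 in Ft1sm22ko, and Ft1sm22ko stood at 0.840 of Ft1ko. The WT mean is low and moved between 15.7 and 36.9 over the 4 scales, which carried the log2 ratio of Ft1ko to WT from 2.48 to 3.85 and that of Ft1sm22ko to WT from 2.29 to 3.56. Cep55 passed the minimum of 100, with 144 over the 10 hearts, through the mutants alone, and a gene admitted in this way had to differ from WT. Among all genes 97.1% had a lower ratio in Ft1ko and 98.3% in Ft1sm22ko. Alas2, an enzyme of heme synthesis in erythroid cells, was like Cep55 higher than WT in both mutants. It averaged 3075 in Ft1ko and 3829 in Ft1sm22ko, against 684 in WT, and unlike Cep55 was higher in Ft1sm22ko than in Ft1ko. The thymocyte markers, with sums of 5556 in Ft1ko, 137 in Ft1sm22ko and 68.0 in WT, were also higher in Ft1ko. The part of erythroid cells and thymocytes in the values of Cep55 and of the cell cycle genes was not tested.

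Cep55 is a gene of dividing cells, and the 20 genes of midbody and cell cycle set beside it were all higher in the mutants. All 20 were at least 1.5-fold higher than WT in Ft1ko, with a median log2 ratio of 2.55, and all 20 were higher in Ft1sm22ko, with a median of 2.13, under each of the 4 scales. Of all genes 25.2% were higher in Ft1ko and 22.0% in Ft1sm22ko on the scale used here. Of the 20, 12 had a WT mean under 100 and, like Cep55, were admitted through the mutants and so had to differ from WT, and the count over all 20 is a description. The other 8, with a WT mean of at least 100, were higher by at least 2.85-fold in Ft1ko and 1.65-fold in Ft1sm22ko. Kif20a, a kinesin of the central spindle, averaged 539 in Ft1ko and 425 in Ft1sm22ko, against 34.6 in WT. Ccnb1, the cyclin of mitotic entry, averaged 307 in Ft1ko and 278 in Ft1sm22ko, against 29.5 in WT. The lowest Ft1ko ratios of the list were those of Cit, a kinase of the midbody, with 2.77 in Ft1ko and 1.89 in Ft1sm22ko, and of Cenpe, a kinetochore kinesin, with 2.85 in Ft1ko and 1.86 in Ft1sm22ko. Both Cep55 ratios lay inside the range of the 20 genes. Between the mutants 6 of the 20 were lower in Ft1sm22ko and 0 were higher, beside 11.1% of all genes lower and 14.2% higher. The median log2 ratio of the 20 was -0.47, and the Cep55 value of -0.25 was nearer to 0 than that median. None of the other 28 members reached in Ft1ko the ratio of Cit. Chmp4c, the ESCRT-III protein that delays abscission when chromatin lags in the bridge, averaged 31.6 in Ft1ko, 43.9 in Ft1sm22ko and 36.6 in WT, and Mitd1, which ESCRT-III draws to the midbody, averaged 65.9 in Ft1ko, 48.9 in Ft1sm22ko and 85.1 in WT. Both lie under the minimum of 100 and were not called.

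**Figure D2:**
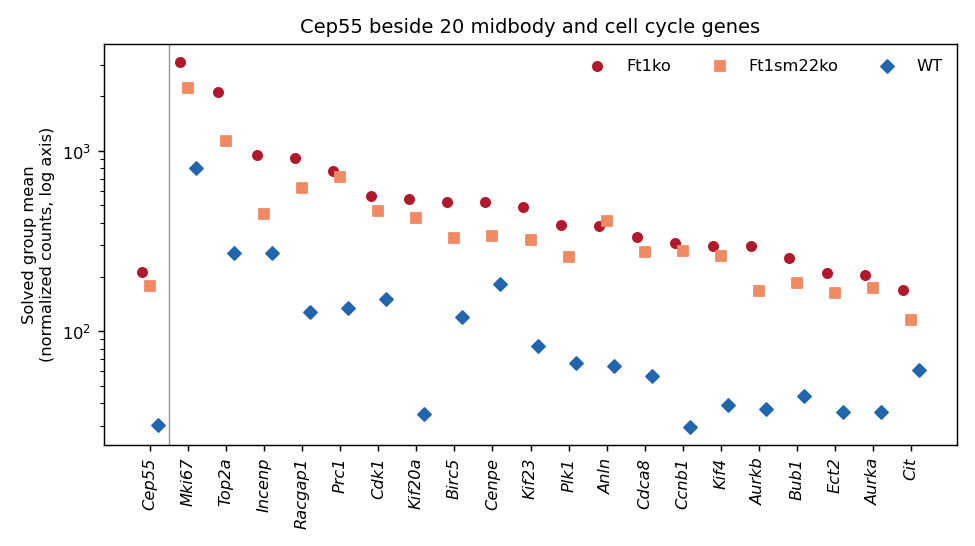
Group means of Cep55 (left of the line) and of 20 midbody and cell cycle genes, in normalized counts on a log axis, for Ft1ko, Ft1sm22ko and WT hearts. Each point is 1 solved mean without an error. In all 21 genes both mutant points lie above the WT point, and Cep55 has 212 in Ft1ko and 178 in Ft1sm22ko, against 30.1 in WT.

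The start of Cep55 is shown because it holds an element common at the starts of mitotic genes. The cell cycle genes homology region (CHR) was searched as TTTGAA, the ETS element as CCGGAAG, the E2F element as GGCGGGAA and the E-box as CACGTG, each on both strands. The window ran from 250 bases before to 50 bases after the first RefSeq start listed for each gene on GRCm38.p6. Any other starts of a gene were not searched. No searched motif contains another. Promoters were found for 24 of the 32 members. Cep55 lies at chr19:38054734-38055033 on the plus strand and holds a CHR, written TTCAAA on this strand, and an ETS element, both after the start and shown in capitals.
Cep55: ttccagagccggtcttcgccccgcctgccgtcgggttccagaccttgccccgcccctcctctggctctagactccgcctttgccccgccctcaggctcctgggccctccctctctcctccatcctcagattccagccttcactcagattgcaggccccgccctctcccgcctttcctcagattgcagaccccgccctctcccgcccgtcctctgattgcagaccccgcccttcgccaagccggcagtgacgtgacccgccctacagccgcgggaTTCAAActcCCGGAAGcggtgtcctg
A CHR was present in 5 of the 24 member promoters (Cep55, Chmp2b, Mitd1, Mvb12a and Pdcd6ip) and in 18.1% of all 27025 promoters of the same length. Of the 20 cell cycle genes 17 had a promoter in the collection, and 12 of these held a CHR. The ETS element was present in 8 of 24 members (Cep55, Chmp1a, Chmp5, Mitd1, Pdcd6ip, Tsg101, Vps25 and Vta1) and in 9.12% of all promoters. The E2F element was found in 0 members, in 0 of the 17 cell cycle genes and in 2.24% of all promoters. The E-box was found in Pdcd6ip and in 7.24% of all promoters. A match of letters is a description and not a bound site, and the members that hold the ETS element include genes on both sides of WT.

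Pdcd6ip encodes Alix, the adaptor that Cep55 brings to the midbody beside Tsg101. It averaged 1444 in Ft1ko and 1323 in Ft1sm22ko, against 992 in WT. The ratios of 1.46 in Ft1ko and 1.335 in Ft1sm22ko were both under the fold of 1.5, and both passed it when the tables were scaled by their totals without the 100 highest genes. Tsg101 itself averaged 765 in Ft1ko, 796 in Ft1sm22ko and 871 in WT, and the sign of its ratio to WT changed with the scale. Neither adaptor was near the ratios of Cep55.

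ESCRT-0 binds ubiquitin on cargo at the early endosome, with Hgs as its core and Stam or Stam2 as partner. All 3 members were higher than WT in both mutants under every one of the 4 scales, and none reached 1.5-fold on the scale used here. Hgs, the highest of the 3 in Ft1ko, averaged 601 in Ft1ko and 486 in Ft1sm22ko, against 416.5 in WT, with ratios of 1.44 in Ft1ko and 1.17 in Ft1sm22ko. Stam, the lowest, averaged 247 in Ft1ko and 268.5 in Ft1sm22ko, against 207 in WT, with ratios of 1.19 in Ft1ko and 1.30 in Ft1sm22ko. Stam2 had ratios of 1.27 in Ft1ko and 1.41 in Ft1sm22ko. The order of the mutants differed, since Hgs was lower and both Stam genes were higher in Ft1sm22ko than in Ft1ko.

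ESCRT-I is a rod of Tsg101, Vps28, 1 of the Vps37 proteins and 1 further subunit, which is Mvb12a, Mvb12b or Ubap1. Its widest contrast lay between both Mvb12 genes. Mvb12b averaged 572 in Ft1ko and 450.2 in Ft1sm22ko, against 302 in WT, a ratio of 1.89 in Ft1ko and of 1.49, just short of the fold, in Ft1sm22ko. Mvb12a averaged 224 in Ft1ko and 247 in Ft1sm22ko, against 355 in WT, with ratios of 0.632 in Ft1ko and 0.696 in Ft1sm22ko. Mvb12b was thus higher and Mvb12a lower in each mutant, and both directions held under the 4 scales, while the Mvb12a call in Ft1ko was lost when totals set the scale (log2 ratio -0.45). Mvb12b counted more in Ft1ko than in Ft1sm22ko, with a ratio of 0.787 between the mutants. The third choice for this place, Ubap1, had ratios of 0.705 in Ft1ko and 0.873 in Ft1sm22ko.

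The promoters of this pair are shown because the genes moved in opposite directions. Mvb12a lies at chr8:71542680-71542979 on the plus strand, with 17 CG pairs in 300 bases and a CHR in capitals before its start. Mvb12b lies at chr2:33887897-33888196 on the minus strand, with 4 CG pairs and none of the searched motifs.
Mvb12a: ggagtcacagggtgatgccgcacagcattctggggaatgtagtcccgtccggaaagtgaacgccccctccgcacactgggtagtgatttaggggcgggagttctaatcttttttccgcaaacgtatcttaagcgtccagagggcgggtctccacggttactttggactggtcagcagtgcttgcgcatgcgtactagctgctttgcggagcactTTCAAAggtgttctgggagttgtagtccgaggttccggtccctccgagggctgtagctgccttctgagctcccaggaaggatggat
Mvb12b: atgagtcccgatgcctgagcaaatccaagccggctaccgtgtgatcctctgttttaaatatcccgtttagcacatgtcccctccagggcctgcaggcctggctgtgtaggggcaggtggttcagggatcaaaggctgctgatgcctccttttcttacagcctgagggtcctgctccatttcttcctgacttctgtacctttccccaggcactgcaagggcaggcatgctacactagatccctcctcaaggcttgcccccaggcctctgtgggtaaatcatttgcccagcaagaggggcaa

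Among the 4 Vps37 genes, whose products fill the same place of the rod, Vps37c stood highest relative to WT in Ft1sm22ko. It averaged 277 in Ft1ko and 323 in Ft1sm22ko, against 209 in WT, with ratios of 1.32 in Ft1ko and 1.54 in Ft1sm22ko, and its call in Ft1sm22ko was lost under 2 of the 4 scales. Vps37b had ratios of 1.13 in Ft1ko and 1.16 in Ft1sm22ko, and 36.4% of its exonic bases overlap Hip1r on the opposite strand. The kit kept the strand of the RNA, but the setting used in counting is not given in the sources used here, so reads of both genes may be mixed. Vps37a was below WT in Ft1ko (0.866) and above it in Ft1sm22ko (1.08), and the sign in Ft1ko changed with the scale. Vps37d was scarcely counted, at 49.0 in Ft1ko, 30.4 in Ft1sm22ko and 28.1 in WT, and was not called. Vps28, the subunit that binds ESCRT-II, had ratios of 0.742 in Ft1ko and 0.882 in Ft1sm22ko.

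ESCRT-II links ESCRT-I to the first ESCRT-III subunit, and all 3 of its genes were below WT in both mutants, although the sign of Vps36 in Ft1ko changed with the scale. Snf8 averaged 367 in Ft1ko and 416 in Ft1sm22ko, against 763 in WT. Its ratios of 0.481 in Ft1ko and 0.545 in Ft1sm22ko were the lowest of the 29 members in both mutants, and both passed the fold under the 4 scales. Vps25, the subunit that binds Chmp6, averaged 859 in Ft1ko and 993 in Ft1sm22ko, against 1316 in WT, with ratios of 0.653 in Ft1ko and 0.755 in Ft1sm22ko, and its call in Ft1ko was lost when totals set the scale (log2 ratio -0.40). Vps36, which binds ubiquitin, was nearest to WT at 369 in Ft1ko, 325 in Ft1sm22ko and 387 in WT, with ratios of 0.952 in Ft1ko and 0.838 in Ft1sm22ko. The ratios of the 3 subunits of the complex thus spread widely.

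ESCRT-III forms the filament, and its genes lay on both sides of WT. Of 10 members with a mean of at least 100, 6 were above WT and 4 below in Ft1ko, and 7 above and 3 below in Ft1sm22ko, with the sign of Chmp3 in Ft1ko and of Chmp1a in Ft1sm22ko open to the scale. Chmp4b, the main filament protein, averaged 1873 in Ft1ko and 1668 in Ft1sm22ko, against 1214 in WT. Its ratios were 1.54 in Ft1ko and 1.37 in Ft1sm22ko, so that it passed the fold in Ft1ko only, and that call was lost under 2 of the 4 scales. Chmp6, which starts the filament from ESCRT-II, had a ratio of 1.499 in Ft1ko, just short of the fold, and of 1.41 in Ft1sm22ko. Chmp5, which binds Vta1, had ratios of 1.49 in Ft1ko and 1.24 in Ft1sm22ko. Chmp2a, which with Chmp3 ends the filament and recruits Vps4, averaged 914 in Ft1ko and 1053 in Ft1sm22ko, against 1365 in WT. Its ratio of 0.6696 in Ft1ko was just short of the fold, which it passed under 2 of the 4 scales, and its ratio in Ft1sm22ko was 0.771. Chmp3 averaged 850.5 in Ft1ko and 990.0 in Ft1sm22ko, against 847 in WT. Chmp2b, which acts beside Chmp2a, had ratios of 1.15 in Ft1ko and 1.28 in Ft1sm22ko.

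Chmp1a, Chmp1b and Ist1 act late and bind the microtubule-severing enzyme spastin or Vps4. Chmp1b averaged 397 in Ft1ko and 374 in Ft1sm22ko, against 262 in WT, with ratios of 1.51 in Ft1ko and 1.43 in Ft1sm22ko, and its call in Ft1ko was lost under 2 of the 4 scales. A close copy listed as 2610002M06Rik, for which RefSeq gives the synonym Chmp1b2, was also higher than WT, at 204.4 in Ft1ko and 204.3 in Ft1sm22ko against 87.6 in WT. How reads shared by both copies were handled is not given in the sources used here. Such reads could be counted for either or dropped, so the Chmp1b values are uncertain. Opposite-strand genes also cover 24% of the exonic bases of Chmp1b, 16.8% of Mitd1 and 7.8% of Vta1. Chmp1a had ratios of 0.796 in Ft1ko and 0.910 in Ft1sm22ko. Ist1 averaged 710.4 in Ft1ko and 678 in Ft1sm22ko, against 950.0 in WT, with ratios of 0.748 in Ft1ko and 0.714 in Ft1sm22ko. Chmp7, which leads ESCRT-III to the nuclear envelope, had ratios of 0.833 in Ft1ko and 1.05 in Ft1sm22ko.

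Vps4a and Vps4b encode the ATPases that take ESCRT-III apart, and Vta1 encodes the cofactor that holds their rings together. Vta1 averaged 288 in Ft1ko and 281 in Ft1sm22ko, against 160.4 in WT, with ratios of 1.80 in Ft1ko and 1.75 in Ft1sm22ko that passed the fold under all 4 scales. It was the only member besides Cep55 to be called higher in both mutants, and its level hardly differed between them (0.973). Vps4a, the lowest of this class in Ft1ko, averaged 526 in Ft1ko and 625 in Ft1sm22ko, against 716 in WT, with ratios of 0.735 in Ft1ko and 0.874 in Ft1sm22ko. Vps4b had ratios of 1.38 in Ft1ko and 1.29 in Ft1sm22ko. The promoter of Vta1, at chr10:14705440-14705739 on the minus strand, is shown because Vta1 shares the ETS element with Cep55, in capitals and read here as CTTCCGG.
Vta1: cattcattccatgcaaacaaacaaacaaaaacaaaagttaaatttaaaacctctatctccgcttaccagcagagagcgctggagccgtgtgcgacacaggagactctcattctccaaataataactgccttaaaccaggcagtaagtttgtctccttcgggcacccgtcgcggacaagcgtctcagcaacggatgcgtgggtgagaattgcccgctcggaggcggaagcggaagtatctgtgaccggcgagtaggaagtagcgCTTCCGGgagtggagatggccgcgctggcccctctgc

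**Figure D3:**
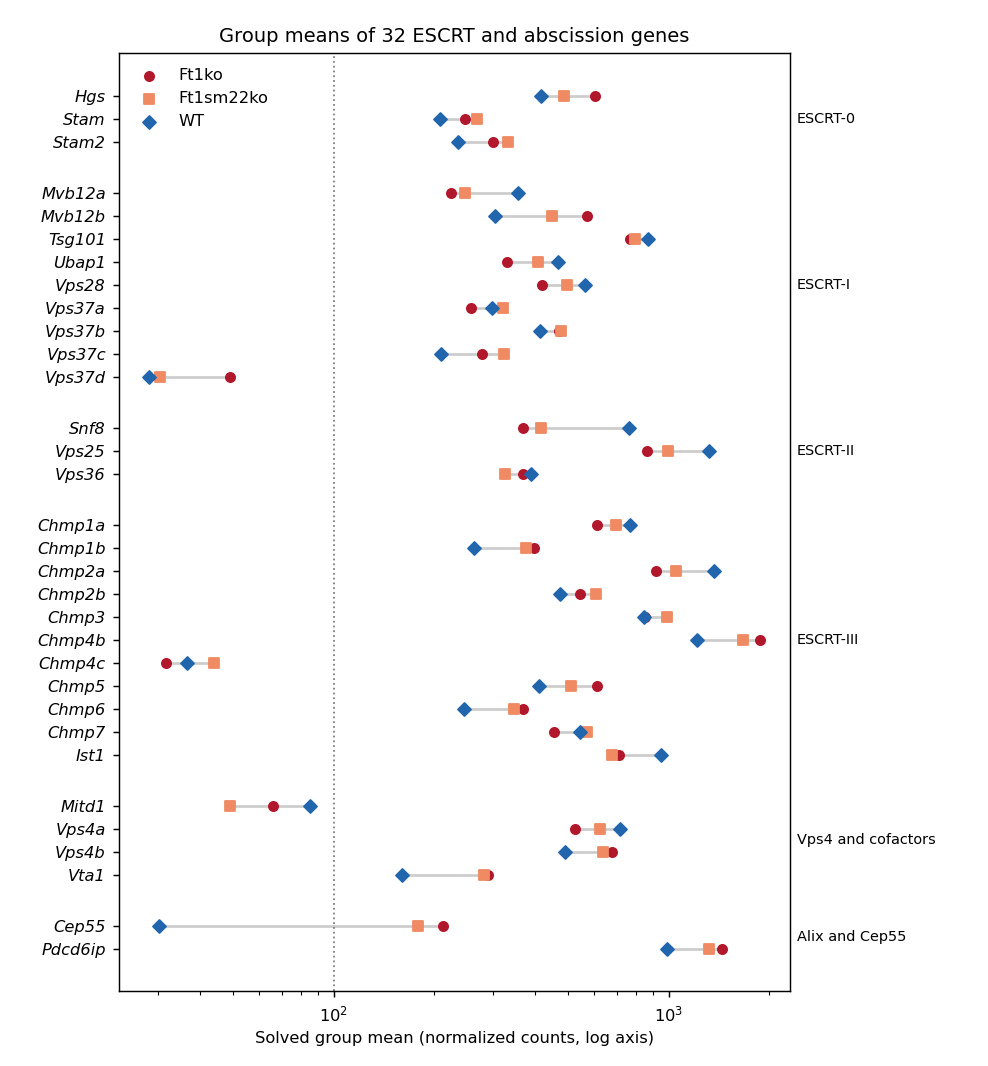
Solved group means of the 32 genes in normalized counts on a log axis, by complex, for Ft1ko, Ft1sm22ko and WT hearts. The dotted line marks the minimum of 100 normalized counts, and the means carry no error. Snf8 and Vps25 of ESCRT-II have their WT points to the right of both mutants, and Vta1, Mvb12b and Cep55 have them to the left.

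A b gene that stood higher relative to WT than its a partner was found in other pairs of paralogs too. The pairs were singled out after their values were seen, so the pattern is a description. The ratio of Mvb12b to Mvb12a was 2.55 in Ft1ko, 1.82 in Ft1sm22ko and 0.851 in WT, that is 3.0 times the WT ratio in Ft1ko and 2.14 times in Ft1sm22ko. Vps4b to Vps4a was 1.29 in Ft1ko, 1.02 in Ft1sm22ko and 0.687 in WT. Neither of these ATPases passed 1.5-fold against WT in either mutant on the scale used here, and a difference in the balance of the pair was not tested. Chmp1b to Chmp1a was 0.651 in Ft1ko, 0.536 in Ft1sm22ko and 0.342 in WT, with the doubt on shared reads named above. Chmp2b to Chmp2a was 0.595 in Ft1ko, 0.576 in Ft1sm22ko and 0.347 in WT. The Stam2 to Stam ratio moved little, at 1.21 in Ft1ko, 1.24 in Ft1sm22ko and 1.14 in WT. In these 4 pairs of a and b genes the fold over the WT ratio lay between 1.69 and 3.17 in Ft1ko and between 1.45 and 2.34 in Ft1sm22ko over the 4 scales. A scale acts almost alike on both genes of a pair, so the direction could hardly change and its being kept is no check. These ratios compare a pair across genotypes and not the levels of the partners, which differ in length.

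**Figure D4:**
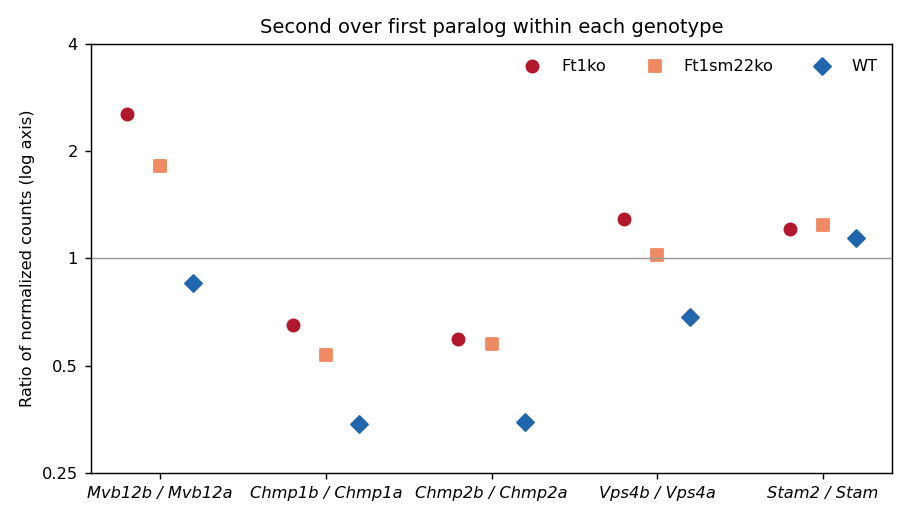
Ratio of the second to the first paralog in normalized counts on a log axis, for 5 pairs in Ft1ko, Ft1sm22ko and WT hearts. Each point is a ratio of solved means without an error. In the 4 pairs of a and b genes both mutant points lie above the WT point, widest for Mvb12 at 2.55 in Ft1ko and 1.82 in Ft1sm22ko against 0.851 in WT, and the Stam pair stays between 1.14 and 1.24.

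In each of these 4 pairs the b gene has the longer exons (for Mvb12b 4998 bases against 1062 for Mvb12a, in the GENCODE M21 basic annotation). Vps37b also stood higher relative to WT than Vps37a, but has the shorter exons, 2522 bases against 6379. Its ratios were 1.13 in Ft1ko and 1.16 in Ft1sm22ko, and those of Vps37a were 0.866 in Ft1ko and 1.08 in Ft1sm22ko. Length moved with the ratios of the whole set. The 11 members of up to 2000 exonic bases had a median log2 ratio of Ft1ko to WT of -0.19, and the 18 longer members had 0.22. Across genes, which are not independent replicates, Spearman's rho of length and log2 ratio was 0.35 in Ft1ko and 0.38 in Ft1sm22ko over the 29 members, against 0.16 in Ft1ko and 0.10 in Ft1sm22ko over the 9623 genes with a length and a ratio. Short genes were lower in general too, with a median of -0.40 over 2056 genes of up to 2000 bases and 0.05 over the 7567 longer ones in Ft1ko. The part of length in the values of the pairs was not tested.

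Per kilobase of exon the order of the members also differed between genotypes. Chmp4b led in both mutants, with a level of 1159 normalized counts per kilobase in Ft1ko and 1032 in Ft1sm22ko, ahead of Chmp2a with 842 in Ft1ko and 969.6 in Ft1sm22ko. In WT Chmp2a led with 1257, followed by Vps25 with 802, Snf8 with 760.0 and Chmp4b with 751. Snf8 was the seventh in Ft1ko with 365 and the fifth in Ft1sm22ko with 414.5. Cep55 held rank 26 of 29 in both mutants, with 76.7 in Ft1ko and 64.5 in Ft1sm22ko, and the last rank in WT, with 10.9. The WT levels of Snf8 and Chmp4b lay closer together than the 4 scales moved either, and with no spread between hearts neighbours in this order cannot be told apart.

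Genes that work with ESCRT but are not part of it lay on both sides of WT as well, and those called higher were Lamp2, Lgals3, Nedd4, Rab5a and Sdcbp in either mutant, named here after their values were seen. Of 30 such partners 29 had a mean of at least 100. In Ft1ko 5 were at least 1.5-fold higher and 2 lower (Eea1 and Lemd2), which is 24.1% against 52.9% of all genes. In Ft1sm22ko 5 were higher and 5 lower (Arrb2, Arrdc1, Cc2d1b, Eea1 and Lemd2), which is 34.5% against 43.0%. Their median log2 ratio was 0.06 in Ft1ko and 0.14 in Ft1sm22ko. Lgals3, a galectin that marks torn endosomes and binds Alix, averaged 231 in Ft1ko and 173 in Ft1sm22ko, against 37.3 in WT, with ratios of 6.18 in Ft1ko and 4.63 in Ft1sm22ko. Like Cep55, Lgals3 passed the minimum of 100, with 149 over the 10 hearts, through the mutants alone and so had to differ from WT. Macrophages and fibroblasts also make Lgals3, and the 4 macrophage markers summed to 812 in Ft1ko and 741 in Ft1sm22ko, against 439 in WT. Their part in the Lgals3 value was not tested. Nedd4, a ubiquitin ligase for ESCRT cargo, averaged 7851 in Ft1ko and 8076 in Ft1sm22ko, against 3012 in WT. At the lower end Lemd2, the inner nuclear membrane protein that recruits Chmp7, averaged 458 in Ft1ko and 349.5 in Ft1sm22ko, against 777 in WT, with ratios of 0.589 in Ft1ko and 0.450 in Ft1sm22ko. Eea1, the tether of early endosomes, averaged 505 in Ft1ko and 492 in Ft1sm22ko, against 846 in WT. Between the mutants Arrb2 and Arrdc1, both arrestins that bind ubiquitin ligases, were lower in Ft1sm22ko, with ratios to Ft1ko of 0.603 for Arrb2 and 0.411 for Arrdc1, and 0 partners were higher. That is 6.9% of the partners past the fold, against 25.3% of all genes.

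The closeness of both mutants across the set shows in the direct comparison. The log2 ratio of Ft1sm22ko to Ft1ko lay between -0.35 (Mvb12b) and 0.34 (Chmp7) over the 29 members, 17 of which were above 0 and 12 below, with Tsg101, Vps37b, Ist1 and Vta1 changing sign with the scale. Their median was 0.12, against 0.03 for all genes. The absolute log2 ratio had a median of 0.18 among the members and of 0.32 among all genes. Of 8 ESCRT-I members 7 were higher in Ft1sm22ko than in Ft1ko and Mvb12b alone was lower, with Tsg101 and Vps37b among those that depend on the scale, and of 10 ESCRT-III members 5 were higher and 5 lower. Past the smaller fold of 5 to 4 stood only Chmp7 at 1.26 and Mvb12b at 0.787.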

How the data were processed

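RNA of heart tissue from 10 male mice was sequenced. Per the labels and the methods of the study, RNA was taken up in TRIzol and made into stranded libraries with the Universal Plus mRNA-Seq kit, reads were aligned with STAR to a reference named hg38, although the tables hold mouse symbols, and the submitters' processing notes name StringTie and HTSeq without a version. Reads were counted on genes by the authors, who ran DESeq2 on each pair of genotypes. The deposited mean signal of a gene, which the authors made from counts divided by the size factors of DESeq2, is its average over the hearts of both groups. The other deposited columns hold the authors' own fold changes, standard errors, statistics and p-values, and were not used. No column belongs to a single heart, so the depth per heart is unknown. The pooled means sum to 12855842 for Ft1ko and WT, 17494318 for Ft1sm22ko and WT, and 19300052 for Ft1sm22ko and Ft1ko, over 16876, 16938 and 17487 genes.

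The last 2 tables were divided by 1.357 and 2.137, in the order Ft1sm22ko with WT and Ft1sm22ko with Ft1ko, which are median ratios to the first over genes with a mean of at least 100. The 3 group means of a gene then followed from its 3 pooled means, weighted by 3 Ft1ko, 4 Ft1sm22ko and 3 WT hearts. This assumes that the same 3 WT hearts stand in both tables with WT, although their labels name only the one with Ft1ko, and that the size factors of a genotype differ between tables by 1 factor only. Of the 9955 genes with a mean of at least 100, 24 had a WT mean solved at or under 0. Alternatives were 3 other scales between tables, means of at least 10 or 500, folds of 5 to 4 and of 2, and ratios centred on the median of all genes. The members, the lists of 30 partners and 20 cell cycle genes and the markers were chosen with earlier results of these data known. Full means and ratios were given for members past 1.5-fold in any comparison and for the highest and lowest Ft1ko ratio of each complex, and for at most the 2 highest and the 2 lowest genes of another list. Other members named with values were chosen after these were seen. Exonic lengths came from GENCODE M21, with a length for 96.9% of the 9955 genes. Python 3.11.15 was used with numpy 2.4.6, pandas 2.3.3, scipy 1.17.1 and matplotlib 3.10.9. Q-PCR and older mice were not analysed here, and the summed level of the erythroid markers is not reported here.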

Additional observations from a re-analysis of the deposited data

How the results depend on the processing

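No paired analysis was possible because the tables hold no values per heart, and for the same reason no heart could be left out in turn. The scale taken from genes of 1 genotype alone could not be set at a limit of 1%, which left 4 genes for Ft1ko and 0 for WT and Ft1sm22ko. A limit of 10%, chosen after seeing the data, left 121 genes for Ft1ko but only 3 for WT and 2 for Ft1sm22ko. It gave 3 members higher and 4 lower in Ft1ko, in place of 5 and 3, beside 23.1% and 29.3% of all genes. In Ft1ko against WT the count of 8 members past the fold became 10 with the median ratio over all genes (3 higher and 7 lower), 9 with ratios centred on the median of all genes (7 higher and 2 lower), 13 (12 higher and 1 lower) with scales from totals without the 100 highest genes, 3 with a mean of at least 500, 21 at a fold of 5 to 4 and 2 at 2-fold. The median log2 ratio of the members, 0.18, became 0.03 with the median ratio over all genes, 0.43 with totals and -0.225 with a mean of at least 500, which leaves 14 members. In Ft1sm22ko against WT the count of 4 became 10 with totals (9 higher and 1 lower), 1 with a mean of at least 500, 17 at a fold of 5 to 4 and 1 at 2-fold, and the median of 0.22 became 0.41 with totals and -0.029 with a mean of at least 500. Between Ft1sm22ko and Ft1ko the count of 0 became 1 with a mean of at least 10, which admits Vps37d, and 2 at a fold of 5 to 4. The scale also moved all genes. In Ft1ko against WT their median log2 ratio was -0.19 with the median ratio over all genes, where 20.5% were higher and 33.0% lower, and 0.20 with totals, where 34.5% were higher and 20.9% lower, in place of 25.2% and 27.7%. In Ft1sm22ko against WT totals gave a median of 0.17, with 30.8% higher and 16.8% lower in place of 22.0% and 21.0%. Between Ft1sm22ko and Ft1ko the median ratio over all genes gave 0.13, with 20% higher and 8.95% lower in place of 14.2% and 11.1%, and totals gave 10.5% higher and 12.2% lower. A scale moves members and all genes almost alike, so the distance between their medians could change little under the 4 scales. The median of the members stayed 0.22 to 0.23 above that of all genes under the 4 scales in Ft1ko, 0.22 to 0.23 in Ft1sm22ko and 0.09 to 0.10 between the mutants. It was not kept with other minimums, at -0.01 in Ft1ko and 0.14 in Ft1sm22ko with a mean of at least 10, and at -0.028 in Ft1ko and 0.064 in Ft1sm22ko with a mean of at least 500, where the median of all genes in Ft1ko was -0.20. The partners' median of 0.06 in Ft1ko became -0.10 with the median ratio over all genes and 0.30 with totals (11 higher and 1 lower, in place of 5 and 2), that of 0.14 in Ft1sm22ko became 0.34 with totals and 0.25 with a mean of at least 500, and that of 0.004 between the mutants became 0.11 with the median ratio over all genes. The 20 cell cycle genes past the fold became 5 in each mutant with a mean of at least 500, where 5 of them are left, and the 6 between the mutants became 2 there, 13 at a fold of 5 to 4 and 1 at 2-fold. Of the values of members past the fold under another scale or centring, 25 moved by under 0.1 on the log2 scale and 23 by more, and 0 changed direction. Among the values of the same members in comparisons where they did not pass it, 1 changed direction, that of Vta1 in Ft1sm22ko over Ft1ko, which was 0.043 with the median ratio over all genes in place of -0.039. With no spread between hearts, the size of an ordinary difference between animals cannot be set beside any value.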
